A study of Mus musculus with 2 samples.

Results

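The odorant receptor genes of mouse chromosome 7 were examined in 2 comparative genomic hybridisations, in which labelled genomic DNA of offspring and of controls competed for the same array probes. The genes were taken by name and position alone, with no measured value: every measurement probe whose name in the array annotation begins with Olfr and whose mapped position lies on chromosome 7. This gave 134 genes read by 146 probes, out of 26677 names read by 42396 probes on the adult array. A further 527 probes on the adult array carried Olfr names without a position on the assembled chromosome 7, and 5 of these lay on an unplaced contig of chromosome 7. Of the 134 names, 133 were found in the RefSeq table of the mouse assembly GRCm38.p6, all of them on chromosome 7 and all protein coding, and Olfr614 was not matched. That table lists 294 Olfr genes on the chromosome, 239 coding and 55 pseudogenes.

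On the adult array, tail DNA of female Dnmt3L+/+ offspring with a Dnmt3L+/- father carried the green dye Cy3, and tail DNA of female Dnmt3L+/+ animals of an unrelated C57BL/6 colony carried the red dye Cy5. On the embryo array, taken at E10.5 of gestation, whole-embryo DNA of female Dnmt3L+/+ offspring with a Dnmt3L+/- father carried Cy5, and whole-embryo DNA of female Dnmt3L+/+ embryos from a control cross carried Cy3. Dnmt3L encodes a catalytically inactive partner of the de novo DNA methyltransferases that acts in germ cells. The design sets offspring of Dnmt3L+/- males against offspring of Dnmt3L+/+ males, and neither side of a comparison carries the mutant allele itself. Adult offspring and adult controls also differ in colony. The labels name the embryos as (FVB/NJ x C57BL/6)F1 in one field and as C57BL/6 in another, and the age of the adults, the number of animals and any pooling are not given. There was 1 array per stage, so no ratio below has a replicate array behind it at its own stage, and stage, source of the control DNA and dye orientation cannot be told apart between the arrays.

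Odorant receptors are G-protein-coupled receptors of the olfactory sensory neurons of the nose, and each neuron expresses a single receptor gene from a single allele. Their genes stand in tandem clusters that grew by duplication, the protein is encoded in an uninterrupted exon, and such clusters are known to vary in copy number between individuals and strains. Close copies share sequence, so a probe may read more than the gene it is named for, and the probe sequences were not used here. Mammalian receptors fall into class I and class II, and all class I genes lie in a single locus on mouse chromosome 7 that also holds the β-globin genes. The arrays measured DNA, so the values below concern gene dosage in tail and embryo and say nothing of expression.

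Windows at the annotated gene start are shown for the receptors with the highest adult, the lowest adult and the lowest embryo ratio by gene. They give the kind of sequence these genes sit in. Each window covers 250 bases before to 50 bases after the gene start on GRCm38.p6, from RefSeq, printed 5′ to 3′ on the plus strand. In each printed window the last 50 bases begin with ATG. The annotated start there is thus that of the coding sequence, and the window need not hold the promoter. Capitals mark the homeodomain core TAATTA. The windows are those of Olfr593 (chr7:103211612-103211911), Olfr568 (chr7:102876872-102877171) and Olfr615 (chr7:103560229-103560528).
Olfr593: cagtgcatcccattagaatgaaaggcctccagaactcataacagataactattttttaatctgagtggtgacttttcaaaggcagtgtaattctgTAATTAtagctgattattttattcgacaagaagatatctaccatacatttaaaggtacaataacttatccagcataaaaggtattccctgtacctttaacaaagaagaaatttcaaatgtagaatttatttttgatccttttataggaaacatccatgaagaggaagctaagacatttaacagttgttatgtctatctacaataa
Olfr568: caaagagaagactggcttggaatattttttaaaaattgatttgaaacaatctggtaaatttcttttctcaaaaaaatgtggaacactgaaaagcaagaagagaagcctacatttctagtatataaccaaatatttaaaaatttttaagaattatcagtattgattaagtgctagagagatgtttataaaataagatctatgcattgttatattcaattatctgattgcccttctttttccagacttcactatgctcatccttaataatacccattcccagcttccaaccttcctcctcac
Olfr615: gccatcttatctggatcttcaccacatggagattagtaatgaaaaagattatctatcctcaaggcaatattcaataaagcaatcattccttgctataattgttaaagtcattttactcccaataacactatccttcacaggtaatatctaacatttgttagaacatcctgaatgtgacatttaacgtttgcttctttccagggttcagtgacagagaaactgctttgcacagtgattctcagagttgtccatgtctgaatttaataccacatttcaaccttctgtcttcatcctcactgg

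The windows held 31%, 30.3% and 36.3% G or C for Olfr593, Olfr568 and Olfr615. Windows were available for 113 of the 134 genes, with a median of 37.3% G or C, against 53.3% for the 2581 windows of other genes on chromosome 7 and 52.7% for all 32851 windows. The receptor windows were therefore AT-rich as a group, and the lowest among the 113 held 21.3% G or C. TAATTA reads the same on both strands and is the core bound by homeodomain factors such as Lhx2 and Emx2. It stood in 12 receptor windows (10.6%), against 5.29% of all windows and 3.41% of the other chromosome 7 windows. TAATTA holds only A and T, so AT-rich windows match it more readily by composition alone. The shares were not adjusted for G or C, and no enrichment is read from them. The palindrome of TCCC and GGGA with any 2 bases between them, read by the olfactory Ebf factors, stood in 1 receptor window (0.885%), against 0.904% of all windows and 1.28% of the other chromosome 7 windows. Neither motif overlaps the other, and a match is a description of letters only. Across the 113 genes, the window's share of G or C and the adult ratio had a Pearson r of −0.01. With the embryo ratio r was 0.06. Points of an array share its DNA samples.

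Each probe's value is the log2 ratio of the offspring's processed signal over the control's, with the array's median over all probes set to 0, so that a positive value means more signal in the offspring. A ratio at least 1.5-fold from that median, 0.58 on the log2 scale, is called past the fold. It is a description, since with 1 array per stage there is no test. Over the 308 probes with at least 3 spots, the median SD between spots of a probe was 0.194 on the adult array. On the embryo array it was 0.065. The 146 receptor probes were read by 148 spots, so most ratios rest on 1 spot. A receptor ratio smaller than that SD lies within the spread between spots of its array. Processed signals are intensities in arbitrary units and are given before the median is set to 0.

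On both arrays the receptors lay close to an even ratio of offspring to control. Over the 146 probes the median log2 ratio came to −0.03 for adults (SD over probes 0.245, range −0.83 to 0.69) and to −0.02 in embryo DNA (SD over probes 0.256, range −1.21 to 0.42). The lowest embryo value belongs to a probe with a channel not well above background, given below as a bound. In adult DNA 142 probes lay within 1.5-fold, and in embryo DNA 139. Taking both arrays, 135 probes lay within 1.5-fold on each, 11 were past it on either array, and 0 were past it on both. In adult DNA the receptor probes had median processed signals of 1338 in offspring and 1333 in controls, against 939 and 932 over all probes. In embryo DNA these were 1324 in offspring and 1401 in controls, against 989 and 1010 over all probes. No receptor probe was saturated, and 144 of 146 stood well above background in both channels of both arrays.

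**Figure D1:**
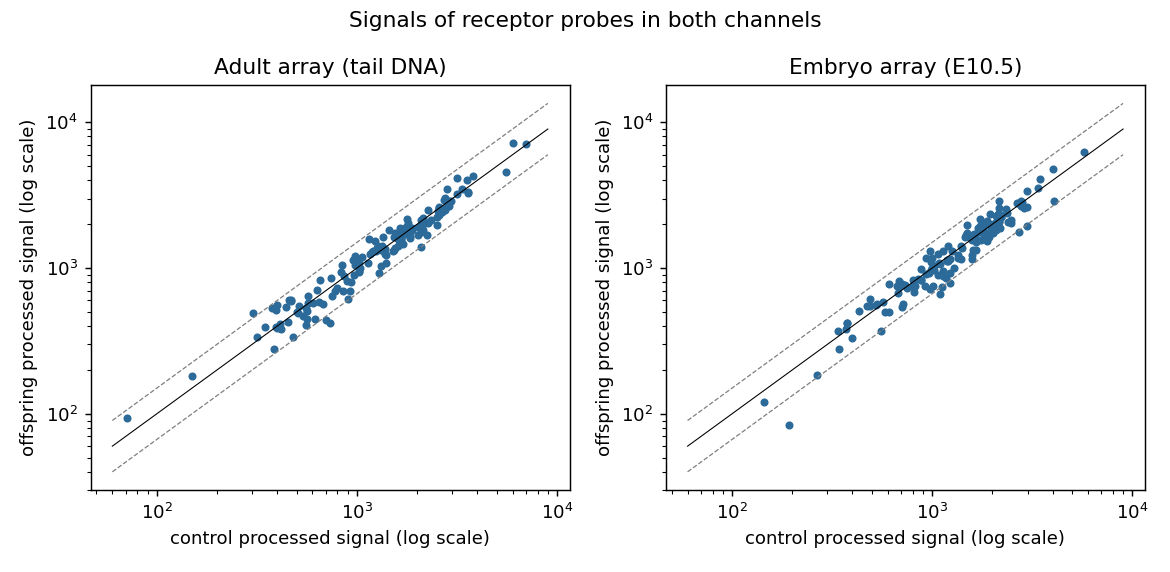
Processed signal of each of the 146 receptor probes in the offspring channel (vertical axis, arbitrary units, log scale) against the control channel (horizontal axis, arbitrary units, log scale) on the adult array and the embryo array; the solid line marks equal signal and the dashed lines a 1.5-fold difference. Nearly all points lie between the dashed lines on both arrays, 142 and 139 of 146 by the centred ratio.

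On the adult array 1 receptor probe was past the fold on the higher side, against 2.22% of all probes, and 3 were past it on the lower side, against 6.73% of all probes. On the embryo array 0 receptor probes were past the fold on the higher side, against 3.33% of all probes, and 7 were past it on the lower side, against 6.39% of all probes. As shares of the receptor probes these are 0.685% and 2.05% in adult DNA, and 0% and 4.79% in embryo DNA. Each is below the share of all probes, which include those of chromosome X. The SD over all probes was 0.368 in adult DNA and 0.372 in embryo DNA, and over autosomal probes 0.322 and 0.335. The shares without chromosome X were not counted, so all probes are not an autosomal yardstick for the receptors. Among the other named probes of chromosome 7 the shares were 2.14% higher and 3.61% lower in adult DNA, and 5.17% higher and 3.73% lower in embryo DNA, so on the lower side in embryo DNA the receptors' share was above theirs. Normexp background correction was run on the mean signals, which precede dye normalization. With it 0 receptor probes were higher and 0 lower past the fold in adult DNA, against 0.0047% and 0.807% of all probes. In embryo DNA 2 were higher and 1 lower, against 4.38% and 2.97% of all probes. Its offset of 50 is near the adult median background-subtracted signals of 40.8 in offspring and 56.3 in controls. An offset added to both channels draws ratios towards even, so these counts are not on equal terms with those above. At 2-fold, 0 receptor probes were past the limit in adult DNA and 1 in embryo DNA, an Olfr1344 probe with a channel not well above background. The share of all probes at 2-fold was not counted, so nothing is read from these counts.

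Olfr593, in the class I locus at 97319662 to 97319721 in the files' coordinates (the sources used here do not name their build), gave the only higher call. Its probe read 493.5 in adult offspring and 301.0 in adult controls, a log2 ratio of 0.69 (1.61-fold). The same probe read 541.1 in embryo offspring and 711.0 in embryo controls, a log2 ratio of −0.40. The offspring channel was thus the brighter in adult DNA and the dimmer in embryo DNA.

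Olfr568, another class I receptor at 96985752 to 96985808, was the lowest gene on the adult array. Its probe read 442.6 in adult offspring and 703.5 in adult controls (log2 ratio −0.69), and 1834 in embryo offspring and 2080 in embryo controls (log2 ratio −0.19). It was lower in offspring on both arrays, past the fold on the adult array. Olfr521, of a pair with Olfr520 that lies apart from the large clusters, was the other gene past the fold on the lower side. It read 1400 in adult offspring and 2086 in adult controls (−0.60), and 2663 in embryo offspring and 2769 in embryo controls (−0.06). Its neighbour Olfr520 gave 0.30 in adult DNA and −0.13 in embryo DNA. Olfr521, at −0.597 on the adult array, lay just past the limit, and Olfr629, at −0.576, just short of it.

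The embryo calls were all on the lower side, and 6 of the 7 lay in the class I locus. That locus holds 95 of the 146 receptor probes. The 6 calls are 6.32% of its probes, against 6.39% of all probes. Olfr615 read 786.3 in embryo offspring and 1222 in embryo controls (log2 ratio −0.64), against 1592 in adult offspring and 1155 in adult controls (0.44). Olfr641 read 1763 in embryo offspring and 2713 in embryo controls (−0.63), against 4167 in adult offspring and 3151 in adult controls (0.38). Olfr574 read 736.5 in embryo offspring and 1120 in embryo controls (−0.61), against 1647 in adult offspring and 1348 in adult controls (0.27). These 3 receptors were dimmer in offspring in embryo DNA and brighter in offspring in adult DNA. Olfr68 read 1955 in embryo offspring and 2976 in embryo controls (−0.61), and 2507 in adult offspring and 2758 in adult controls (−0.16), the offspring being dimmer each time. Olfr555 read 369.5 in embryo offspring and 552.4 in embryo controls (−0.587, just past the limit), and 394.9 in adult offspring and 347.7 in adult controls (0.16).

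**Figure D2:**
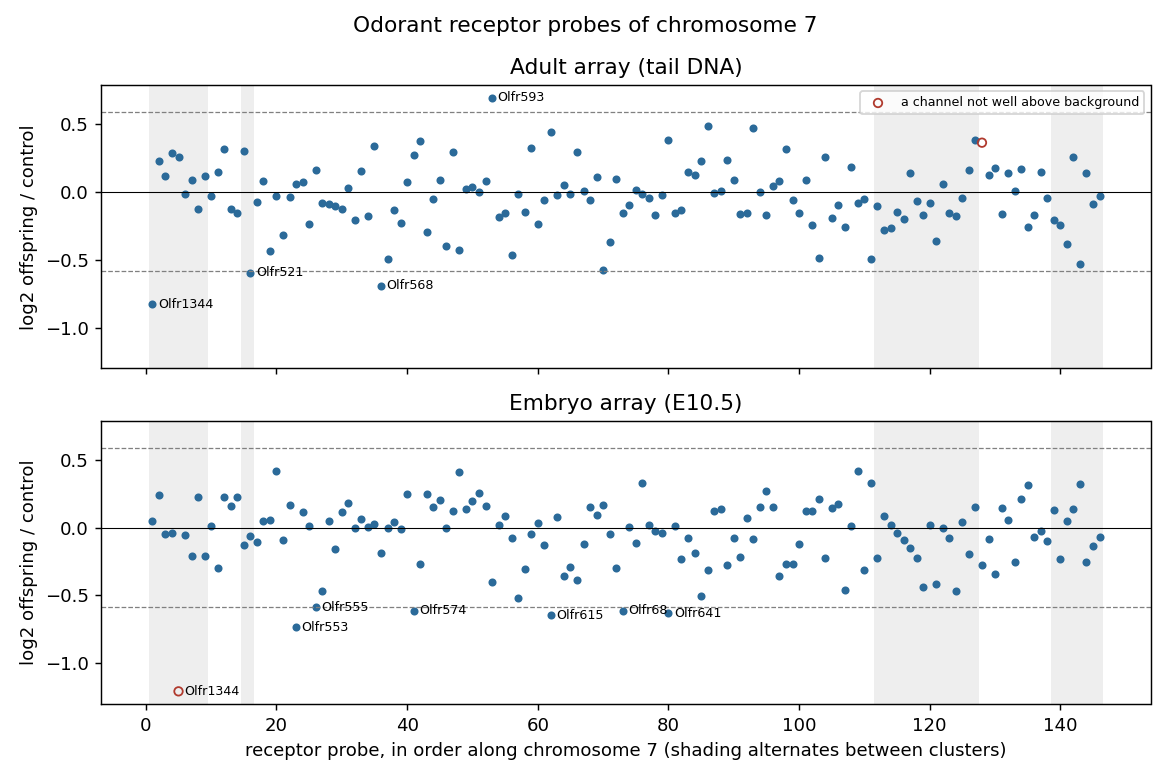
Log2 ratio of offspring over control (vertical axis) of each receptor probe on the adult array and the embryo array, in order along chromosome 7 (horizontal axis, rank), with shading that alternates between clusters and dashed lines at 1.5-fold. Points scatter around 0 along the whole order, named points are past the dashed lines, and open red points had a channel not well above background.

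Several receptors were read by more than 1 probe, which allowed a call on a single probe to be set beside other probes of the same name. Of the 134 genes, 6 had 2 to 5 probes and 128 had 1. Olfr553, a class I receptor, had 3 probes within 0.977 kb. The middle one was printed as 3 spots on each array and was past the fold on the embryo array. Its 3 spots read 662.3, 645.4 and 688.1 in embryo offspring, against 1089, 1055 and 1160 in embryo controls, for log2 ratios of −0.72, −0.72 and −0.76 (mean −0.73, SD 0.024 over 3 spots of 1 array). The spots on the embryo array did not overlap between the channels, but they are repeats of 1 probe on 1 array and not replicates. How many of the 308 probes with at least 3 spots did likewise was not counted. On the adult array the 3 Olfr553 spots read 1320, 929.6 and 1994 in offspring, against 1355, 845.4 and 1810 in controls. Their log2 ratios were −0.06, 0.12 and 0.12. The probes on either side of it gave 0.16 and 0.11 in embryo DNA and −0.04 and 0.07 in adult DNA. The low value was thus carried by 1 of the 3 Olfr553 probes.

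Olfr1344 had 5 probes, which spanned 27.2 kb in the files. RefSeq annotates the gene of that name as 966 bases long, so not all of them can lie in that stretch. Whether the others belong to the gene was not checked. The first read 419.6 in adult offspring and 732.6 in adult controls (log2 ratio −0.83, the lowest of all receptor probes on the adult array), and 1307 in embryo offspring and 1259 in embryo controls (0.05). The last read 84.0 in embryo offspring, where it was not well above background, and 192.8 in embryo controls, so the control signal was at least 2.30-fold higher. It is the only one of the 7 embryo calls outside the class I locus. On the adult array it read 182.8 in offspring and 150.8 in controls (0.26). The remaining 3 probes gave 0.12 to 0.28 in adult DNA and −0.05 to 0.24 in embryo DNA. No probe of Olfr1344 was past the fold on both arrays, and the median of the 5 was 0.23 in adult DNA and −0.04 in embryo DNA.

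The other receptors with several probes stayed within 1.5-fold at every probe. Olfr575 gave 0.37, −0.30 and −0.06 in adult DNA and −0.27, 0.24 and 0.15 in embryo DNA, so probes of 1 gene within 0.999 kb differed in sign. Olfr653 gave 0.09, −0.16 and −0.16 in adult DNA and −0.08, −0.22 and 0.07 in embryo DNA. Olfr631 gave −0.02 and −0.05 in adult DNA and 0.33 and 0.02 in embryo DNA. Olfr78, a receptor for short-chain fatty acids that is also expressed in the carotid body and the kidney, gave −0.21 and 0.15 in adult DNA and −0.01 and 0.06 in embryo DNA. Apart from Olfr1344 and Olfr553, the widest spread between probes of a name was thus that of Olfr575 on both arrays.

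**Figure D3:**
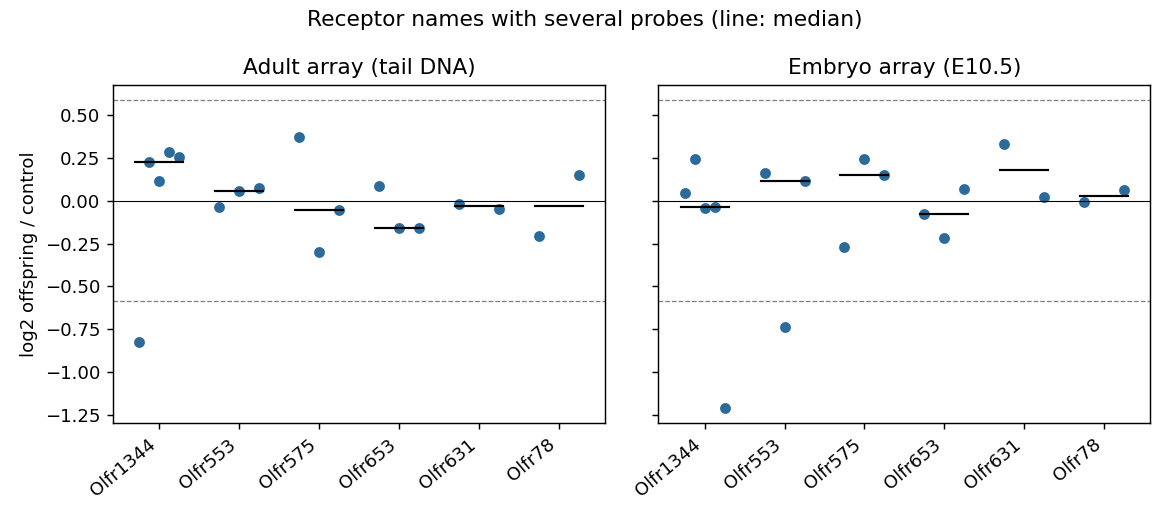
Log2 ratio of offspring over control (vertical axis) of every probe of the 6 receptor names with more than 1 probe, on the adult array and the embryo array; points are probes, horizontal lines their median, dashed lines 1.5-fold. At Olfr1344 and Olfr553 a single probe lies far below the others, and no other name reaches the dashed lines.

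Along the chromosome the receptor probes fell into 7 clusters where a gap of more than 500 kb began a new one, and 6 of these held at least 3 genes. The class I locus, from Olfr547 to Olfr692 (96640028 to 99481684 in the files' coordinates), held 87 genes and 95 probes. Its probes had a median log2 ratio of −0.03 in adult DNA (SD over probes 0.245) and of 0.0011 in embryo DNA (SD over probes 0.259). The single higher call, 1 of the 3 lower calls in adult DNA and 6 of the 7 lower calls in embryo DNA lay in it. As shares of its probes these are 1.05%, 1.05% and 6.32%, against 2.22%, 6.73% and 6.39% of all probes. The 51 probes of the other clusters had a median of −0.05 on each array. They held 2 lower calls in adult DNA (3.92%) and 1 in embryo DNA (1.96%). Among class I genes, Olfr690 had the highest ratio on the embryo array, with 1311 in embryo offspring and 975.9 in embryo controls (0.42), followed by Olfr551 (0.42) and Olfr582 (0.41). On the adult array Olfr690 gave −0.08, Olfr551 −0.03 and Olfr582 −0.43. After Olfr593 the highest on the adult array were Olfr648 (0.48), Olfr654 (0.47) and Olfr615 (0.44), with embryo ratios of −0.31, −0.09 and −0.64, and the lowest after Olfr568 and Olfr521 included Olfr629 and Olfr569 (−0.50), with embryo ratios of 0.17 and −0.0029. None of these passed the fold except where stated above. Olfr558, a further class I receptor expressed outside the nose and named here for that role after its values were seen, gave −0.11 in adult DNA and −0.16 in embryo DNA.

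The class II clusters were smaller, and no probe in the 4 of them with at least 3 genes and no Olfr1344 was past the fold. The cluster from Olfr693 to Olfr716 (100626730 to 101096697) held 16 genes, with a median of −0.13 in adult DNA and −0.08 in embryo DNA. In it Olfr6 was the lowest gene in adult DNA, with 447.3 in adult offspring and 565.7 in adult controls (−0.36), and it was also lower in embryo DNA, with 922.9 in offspring and 1226 in controls (−0.42). Olfr713 was the lowest there in embryo DNA (−0.47, adult −0.18), and Olfr716 the highest on both arrays (0.38 adult, 0.15 embryo). The cluster also holds Olfr2, the I7 receptor for aliphatic aldehydes, and Olfr17, the P2 receptor used in studies of axon targeting, both named for their roles after their values were seen. Olfr2 gave −0.16 in adult DNA and −0.08 in embryo DNA, and Olfr17 gave 0.16 and −0.19.

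The cluster from Olfr482 to Olfr518 (11 genes) had a median of 0.12 in adult DNA and −0.07 in embryo DNA. Its lowest gene in adult DNA, Olfr509 (−0.26), was its highest in embryo DNA (0.32), and Olfr491 was the lowest in embryo DNA (−0.34, adult 0.17). Olfr482, with 93.1 in adult offspring and 71.4 in adult controls, was not well above background in either adult channel, so no adult ratio is given for it. The cluster's adult median includes this probe and was not recomputed without it. The cluster from Olfr522 to Olfr45 (8 genes) had a median of −0.15 in adult DNA and −0.01 in embryo DNA, with Olfr535 lowest in adult DNA (−0.53) and highest in embryo DNA (0.32), Olfr532 highest in adult DNA (0.25) and Olfr536 lowest in embryo DNA (−0.26). The cluster from Olfr308 to Olfr292 (5 genes) had medians of −0.03 and 0.16, with Olfr305 highest on both arrays (0.31 adult, 0.23 embryo), Olfr292 lowest in adult DNA (−0.16) and Olfr307 lowest in embryo DNA (−0.30). The cluster from Olfr1344 to Olfr1350 (5 genes, 9 probes) had medians of 0.11 and −0.05. Its remaining extremes were Olfr1347 (−0.13 adult, 0.23 embryo) and Olfr1350 (0.11 adult, −0.21 embryo). No cluster median came near 1.5-fold on either array.

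Neighbouring receptors were also read together. In windows of 5 consecutive receptor probes within a cluster, 120 in all, the window medians ran from −0.24 (Olfr522 to Olfr535) to 0.23 (Olfr646 to Olfr652) in adult DNA and from −0.47 (Olfr553 to Olfr556) to 0.19 (Olfr578 to Olfr591) in embryo DNA, and 0 were past the fold. The lowest embryo window held the low Olfr553 probe, Olfr555 and Olfr556, with the last at 856.9 in embryo offspring and 1179 in embryo controls (−0.47), but also Olfr554 at 0.015 and an Olfr553 probe at 0.11. Windows of 5 over the other named probes of chromosome 7, 2570 in all, ran from −0.52 to 0.40 in adult DNA, with 0 past the fold. In embryo DNA they ran from −0.56 to 0.67, with 8 past it. Unlike the receptor windows they could cross any gap, and they were more numerous, so the extremes are not on equal terms. Consecutive windows share probes, so the 8 need not be separate places.

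Other named probes of chromosome 7 gave the comparison with the rest of the chromosome: 2574 probes of 1619 names. These names do not begin with Olfr, so a receptor under another name would be counted with them. The receptor probes had an SD over probes of 0.245 in adult DNA, against 0.322 for these other probes, and of 0.256 in embryo DNA, against 0.360. Because receptor probes were brighter than these, both sets were also restricted to the receptors' interquartile range of mean signal. Within it the 72 receptor probes had a median of −0.04 in adult DNA, against 0.03 for 1207 other probes, and of −0.05 in embryo DNA, against 0.02 for 1256 other probes. The receptors' median minus that of the others was thus −0.063 in adult DNA and −0.066 in embryo DNA. With normexp background correction the adult difference was −0.035. At like signal the SD over probes was 0.224 for receptors and 0.231 for the others in adult DNA, and 0.241 and 0.319 in embryo DNA. On the higher side 0% of these receptor probes and 0.994% of the others were past the fold in adult DNA, and 0% and 3.58% in embryo DNA. On the lower side 1.39% of these receptor probes (1 probe) and 0.746% of the others were past it in adult DNA, and 4.17% (3 probes) and 3.42% in embryo DNA. Probes share the DNA of an array and are not replicates, so these differences were not tested.

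**Figure D4:**
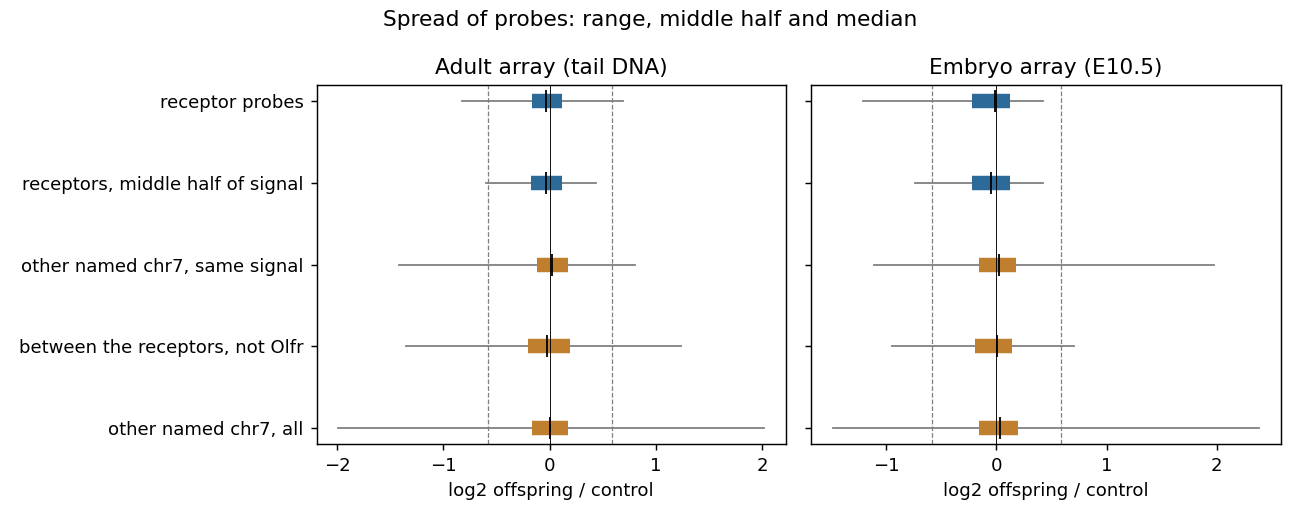
Log2 ratio of offspring over control (horizontal axis) on the adult array and the embryo array for the receptor probes, the receptor probes within their own interquartile range of signal, the other named chromosome 7 probes within that range, the probes lying between the receptors, and all other named chromosome 7 probes; thin lines are ranges, boxes interquartile ranges, ticks medians, dashed lines 1.5-fold. All medians lie near 0, and the receptors have the shortest ranges beside the restricted receptor set drawn from them.

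The probes that lie between the receptors were more variable than the receptors on the adult array. They were taken as those with no Olfr name, so a receptor entered under another name would be among them. There were 120 such probes, 59 with a name, and their SD was 0.425 in adult DNA and 0.286 in embryo DNA, with 8 past the fold on the higher and 10 on the lower side in adult DNA, and 3 and 3 in embryo DNA. They were also dimmer, with median signals of 792.9 in adult offspring and 808.8 in adult controls, and 7 of them were not well above background on the adult array. Within the receptors' range of signal, 49 of them in adult DNA had an SD of 0.190 and 50 in embryo DNA one of 0.225, no larger than for the receptors. In the class I locus the β-globin probe Hbb gave −0.06 in adult DNA and 0.02 in embryo DNA, and the embryonic globin gene Hbb-y gave −0.14 and −0.24. The embryonic globin gene Hbb-bh1 read 328.1 in adult offspring and 189.2 in adult controls (0.77), and 352.4 in embryo offspring and 332.8 in embryo controls (0.08). The Trim genes of the locus, which encode tripartite motif proteins, stayed within 1.5-fold at Trim21, Trim68 and both Trim34 probes, and 1 of 2 Trim30 probes read 3571 in embryo offspring and 2176 in embryo controls (0.71, adult −0.03).

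A stretch around Dub1a, a deubiquitinating enzyme gene, interrupts the class I locus between Olfr661 and Olfr665 and did not extend to either receptor. Dub1a read 260.2 in adult offspring and 473.2 in adult controls (−0.88), and 539.9 in embryo offspring and 422.6 in embryo controls (0.35). The unnamed probe before it gave −1.30 in adult DNA and 0.57 in embryo DNA. The probe TC1444636 after it read 83.1 in adult offspring and 209.4 in adult controls, not well above background in an adult channel, and gave 0.43 in embryo DNA. Olfr661, on one side, read 1243 in adult offspring and 1160 in adult controls (0.08), with an embryo ratio of −0.36. Olfr665, on the other side, read 1820 in adult offspring and 1440 in adult controls (0.32), with an embryo ratio of −0.27. The receptors that border the stretch were therefore not lower in adult offspring.

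The arrays were then set beside each other receptor by receptor. Of the 134 genes 59 had the same sign on both arrays. Over the 146 probes the adult and embryo ratios had a Pearson r of −0.30 and a Spearman rho of −0.25, and over 2573 other named probes of chromosome 7 r was −0.29 and rho −0.33. The inverse relation was thus present in the other probes too. The arrays have opposite dye orientation, whose part in it was not tested. The receptors higher in offspring on both arrays, ranked by the smaller ratio, were Olfr305, Olfr508 (0.17 adult, 0.21 embryo), Olfr716, Olfr532 (0.25 adult, 0.14 embryo) and Olfr578 (0.29 adult, 0.12 embryo). Those lower on both were Olfr6, Olfr686 (−0.26 adult, −0.46 embryo), Olfr523 (−0.24 adult, −0.23 embryo), Olfr568 and Olfr713. With normexp background correction, made without dye normalization, Olfr508 alone of the first 5 stayed higher on both arrays. The embryo ratio turned to −0.15 for Olfr305, −0.21 for Olfr716, −0.26 for Olfr532 and −0.00036 for Olfr578. Of the lower 5, Olfr6 turned to 0.15 in adult DNA, and Olfr568 came to −0.023 in adult DNA and −0.018 in embryo DNA. Past the fold in opposite directions were 0 genes. Olfr692, at the end of the class I locus, was low in adult DNA and high in embryo DNA (−0.49 and 0.32), as was Olfr535.

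**Figure D5:**
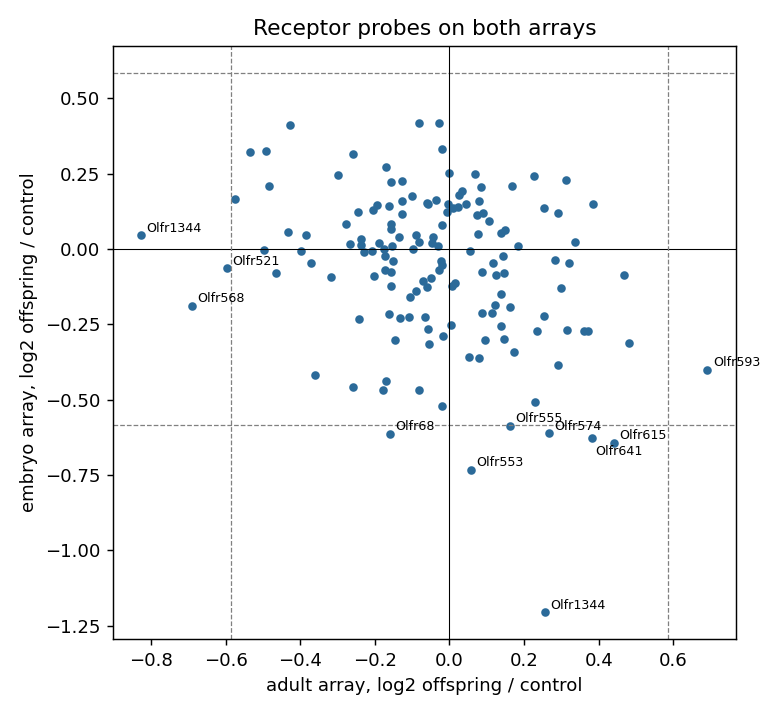
Embryo log2 ratio of offspring over control (vertical axis) against the adult one (horizontal axis) for each of the 146 receptor probes, with dashed lines at 1.5-fold; named points are past it on either array. No point lies past the dashed lines on both axes, and the cloud slopes downward (Pearson r −0.30).

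A fit over both arrays as 2 samples of offspring over control, in limma with empirical Bayes moderation, gave 0 of 146 receptor probes at an adjusted p under 0.05, against 0% of all 42362 probes in the fit. At an unadjusted limma p under 0.05 there were also 0 receptor probes, against 4.53% of all probes, which include those of chromosome X. The share without chromosome X was not counted here either. The smallest limma p among receptors was that of Olfr568 (log2 ratio −0.44, SE 0.216, unadjusted p 0.0827, adjusted p 1), lower on 2 of 2 arrays, followed by Olfr6 (−0.39, SE 0.194, unadjusted p 0.0859). On simulated probes the same fit recovered 91% of changes of −2 and 0% of changes of −0.85. A change of −0.85 was thus not detectable in the simulation with this number of arrays. The simulation shuffled each array's ratios across probes separately and left out chromosome X. It therefore did not carry the inverse relation between the arrays, and detectability in the real fit may differ.

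Genes of olfactory transduction and receptor export, which act with the receptors, were read from a list of 19, of which 17 had probes. By the median of each gene's probes, 0 of the 17 were past the fold in adult DNA, and in embryo DNA 1 was past it on the higher and 2 on the lower side (all probes 3.33% and 6.39%), with list medians of 0.08 and −0.01. Over all probes the median is 0 on each array. The higher one was Pde1c, a calmodulin-dependent phosphodiesterase (0.73 embryo, 0.44 adult). The lower ones were Rtp1, a chaperone that carries receptors to the membrane (−0.86 embryo, 0.43 adult), and Cnga2, a subunit of the olfactory cation channel that lies on chromosome X (−0.63 embryo, −0.50 adult). Rtp2, the neighbour and relative of Rtp1, gave −0.58 in embryo DNA, just short of the fold, and 0.35 in adult DNA. The G-protein subunit Gnal gave 0.08 in adult DNA and −0.13 in embryo DNA, the adenylyl cyclase Adcy3 gave 0.31 and −0.16, and the chloride channel Ano2 gave −0.30 and 0.17. Single probes of Adcy3 and Ano2, each with 3 probes, reached −0.79 and −0.77 in adult DNA. Of the factors that act on receptor choice, Lhx2 gave 0.17 and −0.29, Emx2 −0.02 and 0.19, and the cofactor Ldb1 0.11 and −0.05. Cnga4, the channel subunit on chromosome 7, gave −0.11 and 0.13. The remaining list members Gnb1, Gng13, Reep1, Ric8b, Slc24a4 and Pde4a lay between −0.17 and 0.14 on each array. Each of Pde1c, Rtp1, Rtp2, Emx2 and Cnga4 rests on 1 probe.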

How the data were processed

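Genomic DNA was measured on 2 Agilent 2-colour arrays, and samples, dyes and groups were taken from the labels. The deposited files give spot intensity values written by Agilent Feature Extraction 9.1.1.1, per the file headers (9.1 per the submitters' processing notes). The processed intensity values had been background-subtracted, detrended and dye-normalized in a linear way, per the file headers, and the mean and background intensity columns precede these steps. The deposited log10 ratio is red over green, and the series matrix, also on a log10 scale as deposited, matched it within 0.0005 on every spot. Columns of samples left unused numbered 0. Of the build of the coordinates, the sources used here say nothing.

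Of 44050 spots per array, 1030 control spots and 8 (adult) and 34 (embryo) outlier spots were left out. From the deposited processed signals the log2 ratio was taken as green over red (adult array) or red over green (embryo array), so that offspring stand over control. Spots of a probe entered as their mean, and the median over all probes of an array was subtracted. A surrogate value stood in for a dim channel in 2.99% and 0.186% of adult and embryo spots. Both channels stood well above background in 97.0% of adult and 99.8% of embryo probes, and the median background-subtracted signal was 40.8 in offspring and 56.3 in controls on the adult array, and 189 in offspring and 105 in controls on the embryo array. The precision is limited by 1 array per stage. Where only the dimmer channel was not well above background, the fold is a bound: its divisor is the dim signal or the array's lowest signal above background, whichever is higher.

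Both arrays were fitted in limma 3.58.1 (R 4.3.3) as 2 samples against 0, with Benjamini-Hochberg adjustment over all probes, and with labels that do not say whether animals differ, its p-values measure only the spread between these arrays. The other steps used Python 3.11.15, numpy 2.4.6, pandas 2.3.3 and matplotlib 3.10.9. The fit was tested on simulated data of 40796 probes. The alternatives were normexp background correction with an offset of 50, loess, centring on other named chromosome 7 probes, a filter on dim probes, the series matrix, the median of spots, other definitions of like signal, a 2-fold limit and other cluster gaps.

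The genes, gene lists, tests and alternatives were chosen with earlier results of these data known. By the rule for names, the text gives on each array the 5 highest and 5 lowest genes well above background, up to 5 genes higher and 5 lower on both arrays, genes past 1.5-fold in opposite directions, the lowest and highest gene of each cluster of at least 3 genes, and the 5 genes with most probes, of which 6 are given because of ties. It also gives the measured members of a list of olfactory transduction and named genes between the receptors, in part. Genes outside the rule are named as past the fold, as neighbours or for a known role.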

Additional observations from a re-analysis of the deposited data

Results flagged for a closer look

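In 4 clusters the median log2 ratio of the receptor probes lay on opposite sides of 0 on the arrays, which brought them up for a closer look; the difference between the arrays was not tested, since each stage has 1 array. The embryo median minus the adult median was −0.158 for the cluster from Olfr1344 to Olfr1350 and 0.189 for Olfr308 to Olfr292. It was 0.0292 for the class I locus from Olfr547 to Olfr692 and −0.193 for Olfr482 to Olfr518. The adult median of the cluster from Olfr482 to Olfr518 includes the Olfr482 probe, which was not well above background in adult DNA.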

How the results depend on the processing

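Normexp correction of the mean signals changed the counts of receptor probes past the fold to 0 higher and 0 lower in adult DNA, and to 2 higher and 1 lower in embryo DNA, where it also turned the median to 0.052. It changed the spread as well: the SD over receptor probes was 0.157 in adult DNA and 0.274 in embryo DNA. The share of all probes past the fold on the lower side became 0.807% and 2.97%, and on the higher side 0.0047% and 4.38%. These ratios were not dye-normalized, and the offset of 50 draws ratios of dim probes towards even. With a 2-fold limit the counts were 0 higher and 0 lower in adult DNA and 1 lower in embryo DNA, by the stricter limit itself. The share of all probes at that limit was not counted. Under the other alternatives the medians, the differences from other chromosome 7 probes at like signal and the counts kept their direction, with embryo counts on the lower side of 6 with loess and with dim probes left out. A further restriction, to like G or C in the windows at the gene start, was added after seeing the data. The difference was then −0.020 in adult DNA and −0.11 in embryo DNA, with 6 and 7 other probes left. A gap of 1 Mb gave 5 clusters of at least 3 genes and 250 kb gave 7, against 6. In limma, 39 probes in all and 0 receptor probes passed after normexp, and 0 receptor probes passed under each alternative run. For the genes named by the rule, 423 of 479 values under the signal alternatives moved by less than the spread and 56 moved by more, 46 of them under normexp, and 0 reversed a call. The sign turned for 17 of 80 named values under normexp and for 5 of 399 under the other alternatives together. The cause was not tested. No paired analysis was possible because each stage has 1 array and the labels carry no replicate numbers, and leaving out an array would leave no test. The comparison of receptor proteins was not run, since no protein sequences were used here.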

Other observations

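The 5 receptor probes on the unplaced contig of chromosome 7 all lay within 1.5-fold. Olfr477 gave −0.19 in adult DNA and 0.29 in embryo DNA, Olfr474 gave 0.12 and −0.28, Olfr478 gave −0.11 and 0.06, Olfr476 gave −0.19 and −0.012, and Olfr480 gave −0.0097 and −0.030. The vomeronasal V1r genes, another family of chemosensory receptors on chromosome 7, were read by 18 probes, with a median of −0.09 in adult DNA (2 past the fold on the lower side) and of −0.02 in embryo DNA (0 past the fold). All other Olfr probes had a median of −0.03 in adult DNA (527 probes, SD 0.318) and of 0.0078 in embryo DNA (526 probes, SD 0.270).

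Among adult receptor probes past the fold, 3 of 4 were among the 37 receptor probes of lowest signal, and among embryo ones 2 of 7 were. On the embryo array mean signal and ratio had a Pearson r of 0.24 over the 146 receptor probes.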
